A study of Rattus norvegicus with 18 samples.

Results

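The miR-23, miR-24 and miR-27 microRNAs (miRNAs) are made from 2 gene clusters, and the 10 mature strands that the count table lists as rno-miR-23a-3p, rno-miR-23a-5p, rno-miR-23b-3p, rno-miR-24-3p, rno-miR-24-1-5p, rno-miR-24-2-5p, rno-miR-27a-3p, rno-miR-27a-5p, rno-miR-27b-3p and rno-miR-27b-5p are described here, from now on without the rat prefix. They were chosen by name, and are 10 of the 753 miRNAs listed. Their counts came from small RNA sequencing of dorsal root ganglia (DRG), which hold the cell bodies of sensory neurons, at cervical levels C6-8 of 18 adult Lister Hooded rats in 3 groups of 6. Naive rats were unoperated and untreated. Both injured groups had bilateral pyramidotomy (bPYX), in which the corticospinal tracts are cut on both sides in the medullary pyramids, and their ganglia were taken 10 weeks later. The bPYX+GFP rats had an adeno-associated viral vector (AAV1) with the CMV promoter and green fluorescent protein injected into the forelimb flexor muscles of one side, and the bPYX+NT3 rats had the same vector type with human neurotrophin-3 (NT3). Because naive rats had neither surgery nor vector, cutting the tract and injecting a vector cannot be told apart in a comparison with them. Each library held the ganglia of the treated side of 1 rat. In such bulk tissue, fewer cells of a type and less RNA per cell cannot be told apart.

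A miRNA gene is transcribed into a longer primary RNA, from which a hairpin is cut and then processed into a pair of strands, the 5p and the 3p arm. One arm, the guide, is usually kept in the silencing complex and the other, the passenger, is mostly degraded. The guide pairs with messenger RNAs through its seed, bases 2 to 8, and lowers their translation and stability. In both clusters the textbook guide strands are the 3p arms. The miR-23, miR-24 and miR-27 families are known from blood vessels, muscle, fat and immune cells, and miR-23a and miR-27a have also been studied in neurons.

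In the RefSeq annotation of rat assembly GRCr8, the Mir23a cluster holds Mir23a, Mir27a and Mir24-2 in the order of transcription, with no other gene between them. It lies on the minus strand, inside no other gene, and the protein-coding gene Zswim4 is a neighbour. The Mir23b cluster holds Mir23b, Mir27b and Mir24-1 in the same order, on the minus strand, inside the gene Aopep. The counts were made on another assembly, Rnor_5.0, so no positions are given.

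A mature sequence was found in RefSeq (GRCr8) for 9 of the 10 members; miR-23a-5p had none. The sequences below run 5′ to 3′ with the seed in capitals, and are shown because the pairs of paralogues differ at so few bases that they bear on how far each count belongs to 1 gene.
miR-23a-3p: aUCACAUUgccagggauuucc
miR-23b-3p: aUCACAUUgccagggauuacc
miR-27a-3p: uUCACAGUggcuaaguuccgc
miR-27b-3p: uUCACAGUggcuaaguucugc
miR-24-3p: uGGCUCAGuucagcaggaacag
miR-24-1-5p: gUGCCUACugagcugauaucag
miR-24-2-5p: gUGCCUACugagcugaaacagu
miR-27a-5p: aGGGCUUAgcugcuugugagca
miR-27b-5p: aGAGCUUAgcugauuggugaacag

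miR-23a-3p and miR-23b-3p share the seed UCACAUU and differ at 1 of 21 bases, U19A, with the miR-23a base first and positions counted from the 5′ end. miR-27a-3p and miR-27b-3p share the seed UCACAGU and also differ at 1 of 21 bases, C19U. The first 18 bases are the same in each of these pairs, so a read that ends before position 19 fits both genes. miR-24-3p, with the seed GGCUCAG, is the only member with a sequence in 2 hairpins. Mir24-1 and Mir24-2 share an unbroken run of 28 bases that holds all of miR-24-3p, in capitals, with 3 bases on either side.
Mir24 shared run: cacUGGCUCAGUUCAGCAGGAACAGgag

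The arms opposite miR-24-3p differ between the hairpins: miR-24-1-5p and miR-24-2-5p share the seed UGCCUAC and their first 16 bases, and differ at 5 positions after that.

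The libraries held 4.70 ± 0.66 M counts of miRNAs (SD, n = 18; range 3.88 to 6.92 M). Another 31.4 ± 1.88% of all reads (range 28.0 to 35.1%) had been set aside in the authors' counting for low alignment quality, which includes reads that fit several places in the genome equally well. A header of the table pairs naive replicate 1 with the rat that the study left out as an outlier. All 18 libraries were kept here. For the calls given below for members, their sum and their ratios, it is stated where leaving out naive replicate 1 undoes the call. The correlations and the cell type miRNAs were not rerun without that library alone.

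The Mir23b cluster gave most of the counts. Its listed members took 4.50 ± 0.47% of the miRNA counts of a library, and those of the Mir23a cluster took 1.04 ± 0.09% (SD, n = 18). miR-24-3p is in neither sum, and neither is miR-23b-5p, which was counted but is not a member. All 10 members together took 5.54 ± 0.53%, with a range from 4.32 to 6.44%. Of the members' own counts, 75.1 ± 1.75% were miR-27b-3p.

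miR-27b-3p stood at 41534 ± 3498 counts per M after TMM scaling (CPM; SD, n = 18), at rank 6 of the 753 miRNAs. It was followed by miR-23a-3p at 5108 ± 604 CPM (rank 25), miR-23b-3p at 3223 ± 299 CPM (rank 30), miR-24-2-5p at 2718 ± 411 CPM (rank 33) and miR-27a-3p at 2411 ± 302 CPM (rank 35). The levels of miR-23b-3p, miR-24-2-5p and miR-27a-3p over the 18 libraries overlapped with their neighbours in this order, whereas the lowest miR-27b-3p value, 36016 CPM, was far above the highest miR-23a-3p value, 6408 CPM. The passenger strands miR-27a-5p and miR-27b-5p were lower, at 145 ± 15.3 CPM and 118 ± 10.4 CPM. These mature strands are all of nearly the same length (21 to 24 bases), so no length correction was made, and differences in ligation between sequences were not measured.

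**Figure D1:**
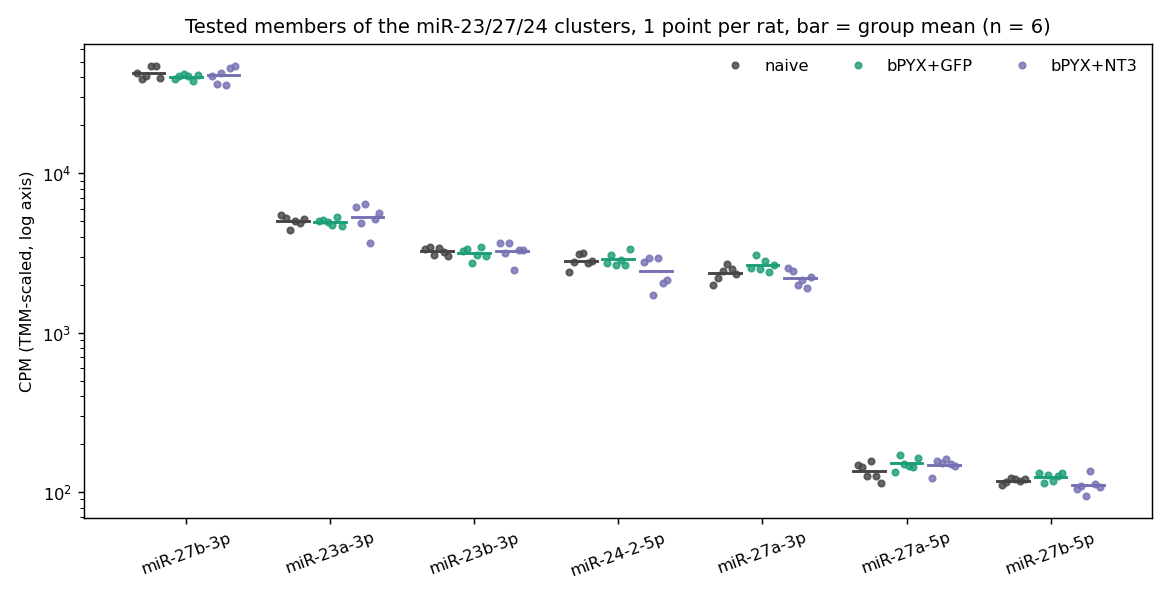
Counts per M after TMM scaling (log axis) of the 7 tested members in each of 18 libraries, with 1 point per rat and a bar at the mean of each group of 6. The lowest miR-27b-3p point, 36016 CPM, lies above the highest miR-23a-3p point, 6408 CPM, and the 3 groups overlap for each of the 7 members.

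The remaining 3 members were too low to be tested, by a filter of more than 10 counts in at least 6 libraries. miR-23a-5p had 3 to 13 counts per library. miR-24-3p, the guide strand of both miR-24 hairpins, had 0 or 1 count in each library and 6 counts in all 18. miR-24-1-5p was listed at 0 in all 18 libraries, and a count of 0 allows up to 3 counts, or 0.434 to 0.773 counts per M in these libraries, for counting error only.

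The miR-24 arms stood the other way round from the usual pattern, with 8174 to 16712 counts of miR-24-2-5p beside at most 1 of miR-24-3p in each library. The part that reads set aside for low alignment quality have in this was not tested. Among the listed miRNAs whose sequence was found in 2 or more hairpins, 17 of 36 (47.2%) had a median count under 1, against 202 of 602 (33.6%) found in 1 hairpin. A median count of 10 or less was held by 20 of 36 (55.6%) and 301 of 602 (50.0%), and neither difference was tested. The rest of the 688 miRNAs with a sequence matched no hairpin and are in neither number. The highest median counts among those found in 2 or more hairpins were those of miR-128-3p, let-7c-5p and miR-92a-3p, at 37897, 11678.5 and 6994. Hairpins were matched in GRCr8, whereas the reads were aligned to Rnor_5.0, so these numbers cannot tell which reads fitted several places. Other strands listed at 0 in all 18 libraries included miR-183-5p, found in 1 hairpin, whose cluster partner miR-182 is known from sensory neurons and had a mean level of 22968 CPM in naive rats, and miR-126a-5p, the partner arm of the endothelial miR-126a-3p.

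Setting bPYX+GFP against naive rats, called after injury from here on, asks what changed with the injury and the vector together, and no member passed its test. Of the 7 tested members, 0 had an adjusted p under 0.05 (edgeR quasi-likelihood test, Benjamini-Hochberg over the 373 tested miRNAs), where 2.41% of all tested miRNAs had one. At an unadjusted p under 0.05, which is the criterion of the study, 1 of the 7 was called, miR-27a-3p, where 21.2% of all tested miRNAs were called, 10.7% as higher and 10.5% as lower. For 0 of the 7 did the 2 groups not overlap, against 4.02% of all tested miRNAs. The median size of the log2 fold change was 0.08 over the members and 0.14 over all tested miRNAs.

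miR-27a-3p, a guide strand of the Mir23a cluster, had a lowest, median and highest level of 1981, 2384 and 2702 CPM in naive rats and of 2392, 2603 and 3062 CPM in bPYX+GFP rats. All 6 bPYX+GFP libraries were above the naive mean of 2358 CPM, but the groups overlapped. The log2 fold change was 0.17 ± 0.08 (SE, n = 6 and 6; 95% interval 0.0018 to 0.35), with an unadjusted p of 0.0479 and an adjusted p of 0.232 by edgeR. Without naive replicate 1 the log2 fold change was 0.13 and the unadjusted p was 0.123, so the unadjusted call depended on that library and on others given in the closing section.

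With NT3 in place of GFP, miR-27a-3p was the member with the lowest p again, in the other direction. It ran from 1922 to 2564 CPM with a median of 2191 CPM in bPYX+NT3 rats, and all 6 libraries were below the bPYX+GFP mean of 2661 CPM. The log2 fold change between bPYX+NT3 and bPYX+GFP was -0.26 ± 0.09 (SE; 95% interval -0.44 to -0.07), with an unadjusted p of 0.00971 and an adjusted p of 0.241 by edgeR. Between bPYX+NT3 and naive rats it was -0.09 ± 0.09 (95% interval -0.29 to 0.11; adjusted p = 0.700 by edgeR), and -0.025 when scaled by library size only. The first pair of comparisons shares the bPYX+GFP libraries, so a high value in these libraries alone gives a positive and then a negative fold change. miR-27a-3p is not in the study's own list of small RNAs changed after injury and normalized with NT3.

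Of the 7 tested members, 0 had an adjusted p under 0.05 between bPYX+NT3 and bPYX+GFP, as for all tested miRNAs (0%). At an unadjusted p under 0.05 it was 1 of 7, where 8.58% of all tested miRNAs were called, 5.09% as higher and 3.49% as lower. Without bPYX+NT3 replicate 4 it was 3 of 7, where the share of all tested miRNAs was 14.5%, with miR-24-2-5p at -0.31 and miR-27b-5p at -0.23 on the log2 scale beside miR-27a-3p at -0.25, and the adjusted p of these 3 was 0.224 or more by edgeR. Between bPYX+NT3 and naive rats 0 of 7 were called at either threshold, where the shares of all tested miRNAs were 0% adjusted and 13.7% unadjusted (7.24% as higher and 6.43% as lower), and 1 of 7 was called unadjusted without bPYX+NT3 replicate 2 (15.8% of all tested) or without replicate 4 (18.2%). The groups overlapped for all 7 members in both comparisons, as they did for all miRNAs in the first and all but 1.34% in the second. The median size of the log2 fold change was 0.10 over the members and 0.12 over all tested miRNAs with NT3 against GFP, and 0.09 and 0.13 with NT3 against naive.

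**Figure D2:**
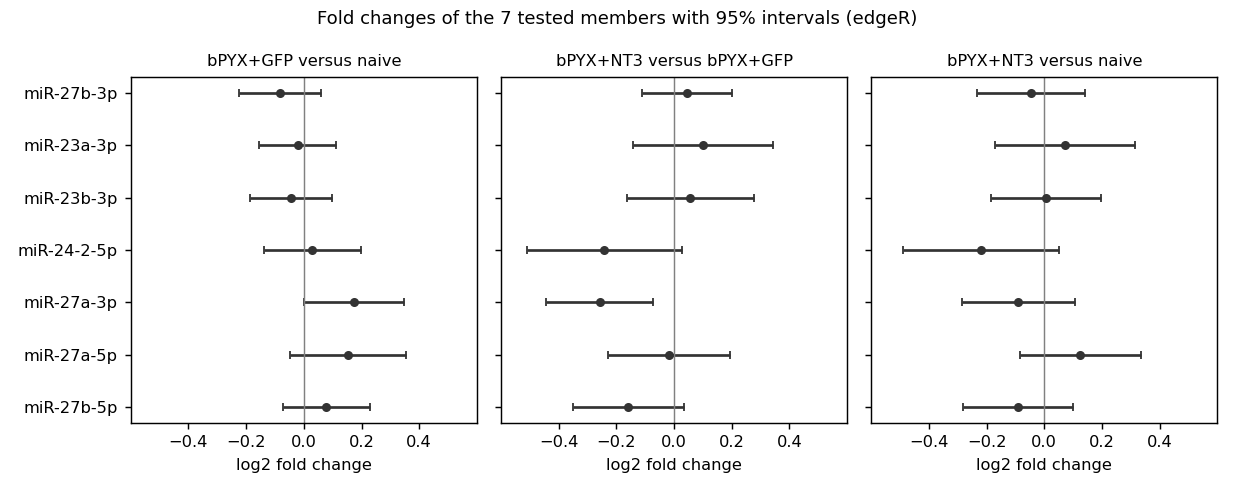
Log2 fold changes of the 7 tested members in the 3 comparisons (points) with 95% intervals from the edgeR fit, on 6 rats per group. Only the intervals of miR-27a-3p leave out 0, in bPYX+GFP versus naive (0.17) and in bPYX+NT3 versus bPYX+GFP (-0.26), and neither has an adjusted p under 0.05.

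miR-27b-3p differs from miR-27a-3p by 1 base and has the same seed. Its lowest, median and highest levels were 38800, 41722 and 47454 CPM in naive rats, 38189, 40864 and 41807 CPM in bPYX+GFP rats, and 36016, 41697 and 47371 CPM in bPYX+NT3 rats. The groups overlapped, with the narrowest range in bPYX+GFP. Its log2 fold change was -0.08 ± 0.07 after injury (95% interval -0.22 to 0.06; adjusted p = 0.534) and 0.04 ± 0.07 with NT3 against GFP (95% interval -0.11 to 0.20; adjusted p = 0.878) by edgeR. Together, the guide strands miR-27a-3p and miR-27b-3p took 4.43 ± 0.43% of miRNA counts in naive rats, 4.29 ± 0.18% with the GFP vector and 4.49 ± 0.65% with the NT3 vector (SD, n = 6).

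The levels of the miR-23 guide strands were close in the 3 groups. miR-23a-3p had medians of 5119, 4990 and 5370 CPM in naive, bPYX+GFP and bPYX+NT3 rats, and its range in bPYX+NT3 rats, 3661 to 6408 CPM, held the ranges of both other groups. Its log2 fold change was -0.02 ± 0.06 after injury (95% interval -0.15 to 0.11) and 0.10 ± 0.11 with NT3 against GFP (95% interval -0.14 to 0.34), and the latter was 0.0080 without bPYX+NT3 replicate 3 and 0.18 without replicate 4. miR-23b-3p had medians of 3290, 3170 and 3316 CPM, with log2 fold changes of -0.04 ± 0.07 and 0.06 ± 0.10 (95% intervals -0.19 to 0.10 and -0.16 to 0.28). Adjusted p was 0.773 or more for both in these comparisons by edgeR. The bPYX+NT3 group had the widest spread of both strands, and its replicate 4 held the lowest level of each, at 3661 and 2469 CPM.

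miR-24-2-5p, from the same cluster as miR-27a-3p, had lowest, median and highest levels of 2419, 2792 and 3148 CPM in naive rats, 2648, 2803 and 3368 CPM in bPYX+GFP rats, and 1733, 2464 and 2958 CPM in bPYX+NT3 rats. In the bPYX+NT3 group, replicates 3, 5 and 6 stood at 1733, 2045 and 2152 CPM and lay below all 12 other-group libraries, while the other 3 lay within their range. The log2 fold change was 0.03 ± 0.08 after injury (adjusted p = 0.912) and -0.24 ± 0.13 with NT3 against GFP (95% interval -0.51 to 0.03; unadjusted p of 0.0756, adjusted p = 0.587) by edgeR. With NT3 against GFP, the unadjusted edgeR p was 0.0365 with no filter, 0.0445 in the fit of all 3 groups and 0.0328 with the replicate block. It was also under 0.05 without bPYX+GFP replicate 5 or without bPYX+NT3 replicate 1, 2 or 4. The adjusted p was 0.248 or more under each alternative. The interval of NT3 against GFP ran from 0.702 to 1.02 times the bPYX+GFP level.

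The passenger strands of the miR-27 hairpins did not pass the test either. The range of miR-27a-5p was 114 to 157 CPM without injury, 133 to 172 CPM with bPYX+GFP and 123 to 161 CPM with bPYX+NT3. Its log2 fold change was 0.15 ± 0.09 after injury (adjusted p = 0.358) and -0.02 ± 0.10 with NT3 against GFP (adjusted p = 0.955) by edgeR. miR-27b-5p ran from 112 to 123 CPM, 114 to 132 CPM and 94.6 to 136 CPM in the same order, with log2 fold changes of 0.08 ± 0.07 (adjusted p = 0.592) and -0.16 ± 0.09 (adjusted p = 0.617). Both strands overlapped between all groups.

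Against naive rats, bPYX+NT3 rats had log2 fold changes of -0.22 ± 0.13 for miR-24-2-5p (SE; 95% interval -0.49 to 0.05), 0.12 ± 0.10 for miR-27a-5p (-0.08 to 0.33), -0.09 ± 0.09 for miR-27b-5p (-0.28 to 0.10), 0.07 ± 0.11 for miR-23a-3p (-0.17 to 0.31), -0.05 ± 0.09 for miR-27b-3p (-0.23 to 0.14) and 0.01 ± 0.09 for miR-23b-3p (-0.19 to 0.20). The adjusted p of these 6 was 0.400 or more by edgeR, and each interval held 0. Leaving out bPYX+NT3 replicate 3 gave 0.011 for miR-23a-3p and leaving out replicate 4 gave 0.18, and for miR-27b-5p the values ran from -0.036 without bPYX+NT3 replicate 1 to -0.14 without replicate 4.

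Within a group, the 7 members varied about as much as other miRNAs or less. The SD of log2 CPM within groups ran from 0.11 for miR-27b-5p to 0.22 for miR-24-2-5p, and its median over the 373 tested miRNAs was 0.22. At the lowest counts, counting error alone gives a CV of 0.266% for miR-27b-3p and 4.74% for miR-27b-5p. The summed members differed between groups by -0.05, 0.01 and -0.04 on the log2 CPM scale in bPYX+GFP versus naive, bPYX+NT3 versus bPYX+GFP and bPYX+NT3 versus naive (adjusted p = 0.545, 0.879 and 0.838; two-sided exact permutation test over 924 splits).

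A ratio of 2 members of 1 library does not depend on how libraries are scaled. Ratios of paralogues and of arms, and the sum of the members, made 18 exact permutation tests, of which 0 had an adjusted p under 0.05 and 3 an unadjusted p under 0.05. The lowest p was that of miR-27a-3p to miR-27b-3p after injury. miR-27a-3p counts were 5.53 ± 0.51% of miR-27b-3p counts in naive rats, 6.58 ± 0.54% with the GFP vector and 5.43 ± 1.03% with the NT3 vector (SD, n = 6).

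Naive rats ran from 4.62 to 6.01% and rats with the GFP vector from 5.97 to 7.52%, so that the groups overlapped by 1 library on each side. On the log2 scale the ratio was higher by 0.25 in bPYX+GFP than in naive rats, with 6 of 6 libraries above the naive mean (two-sided exact permutation test, p = 0.00433, adjusted p = 0.0779). Leaving out bPYX+GFP replicate 3, the lowest of its group, gave a difference of 0.28 and an adjusted p of 0.039, and leaving out naive replicate 1 gave 0.20 and 0.117. With a block for the replicate number, an exact sign-flip test on the differences between same-numbered libraries gave p = 0.0625 and an adjusted p of 0.422. This test has fewer arrangements than 924, so its lowest possible p is higher. The bPYX+NT3 ratios lay in 3 libraries at 4.22 to 4.72% and in 3 at 5.96 to 6.72%, and the log2 difference from bPYX+GFP was -0.30 (exact permutation test, p = 0.0455, adjusted p = 0.253; 5 of 6 libraries below). With single libraries left out, the unadjusted p of this exact test ran from 0.00866 to 0.0974, and it was above 0.05 without bPYX+GFP replicate 1, 2, 4, 5 or 6 or without bPYX+NT3 replicate 3, 5 or 6.

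miR-23a-3p was counted 1.58 ± 0.11 times as often as miR-23b-3p (SD, n = 18), with 1.55 ± 0.10, 1.58 ± 0.12 and 1.62 ± 0.11 times in naive, bPYX+GFP and bPYX+NT3 rats. This ratio did not pass the test in any comparison, with log2 differences of at most 0.06 (adjusted p = 0.545 or more, exact permutation test). In contrast to miR-23, in which the a strand was the higher, the b strand was the higher in miR-27 in each of the 18 libraries.

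In the miR-27a, miR-27b and miR-23a hairpins, the 5p arm was the scarcer one. miR-23b-5p was also counted but is not a member. It stood at 22.8 ± 3.64 CPM (SD, n = 18), beside 3223 CPM of miR-23b-3p, and its ratio was not tested. miR-27a-5p was 6.11 ± 1.00% of miR-27a-3p, miR-27b-5p was 0.286 ± 0.04% of miR-27b-3p, and miR-23a-5p was 0.0296 ± 0.01% of miR-23a-3p (SD, n = 18). The miR-23a-5p ratio was higher by 0.74 on the log2 scale in bPYX+GFP than in naive rats (exact permutation test, p = 0.0368, adjusted p = 0.253), on 5 to 13 against 3 to 10 counts per library. Its unadjusted p by this exact test ran from 0.0195 to 0.0758 with single libraries left out, and was under 0.05 only without naive replicate 3 or 4 or without bPYX+GFP replicate 4. The unadjusted call was thus lost without naive replicate 1, the library paired with the study's outlier. With the replicate block the unadjusted p was 0.0938, by the exact sign-flip test. The ratios of miR-27a-5p and miR-27b-5p to their 3p arms had adjusted p of 0.253 or more in all comparisons (exact permutation test). Without bPYX+NT3 replicate 1, however, miR-27a-5p to miR-27a-3p was higher by 0.33 on the log2 scale with NT3 than with GFP (adjusted p = 0.039, exact permutation test), against 0.24 and 0.296 with that library.

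**Figure D3:**
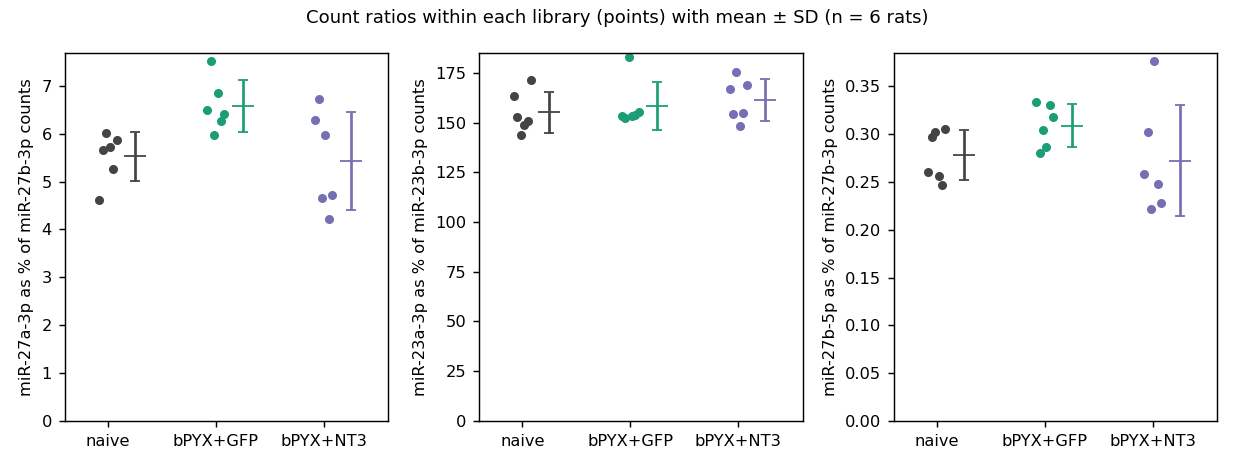
Counts of miR-27a-3p relative to miR-27b-3p, miR-23a-3p relative to miR-23b-3p, and miR-27b-5p relative to miR-27b-3p, each in percent, with 1 point per library and the mean ± SD of 6 rats beside it. The bPYX+GFP points of the first ratio lie at 5.97 to 7.52% and the naive points at 4.62 to 6.01%, and bPYX+GFP replicate 3 stands apart in the second.

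Strands of 1 cluster come from 1 primary RNA, so their levels were compared across libraries. Group means were subtracted from log2 CPM, and the 21 pairs of the 7 tested members were correlated over the 18 libraries, with 100000 permutations within groups and adjustment over the 21 pairs. For 4 pairs Pearson's r had an adjusted p under 0.05, 2 of them positive and 2 negative. The share of pairs called in this way among all tested miRNAs was not computed, so these 4 cannot be taken as a trait of the clusters. All values share the scaling of their library.

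Within the Mir23a cluster, miR-24-2-5p and miR-27a-3p had r = 0.682 (permutation test, p = 0.00423, adjusted p = 0.0296) and Spearman's rho = 0.690 (p = 0.00626, adjusted p = 0.0657). Without the 2 libraries farthest from the median, bPYX+NT3 replicates 3 and 4, r was 0.778, and within naive, bPYX+GFP and bPYX+NT3 rats it was 0.849, 0.576 and 0.726. miR-23a-3p, which is cut from the same primary RNA, had a negative r with both of them, with neither past the test: r was -0.113 with miR-27a-3p (permutation test, adjusted p = 0.949) and -0.607 with miR-24-2-5p (adjusted p = 0.265). The difference between these correlations was not tested.

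**Figure D4:**
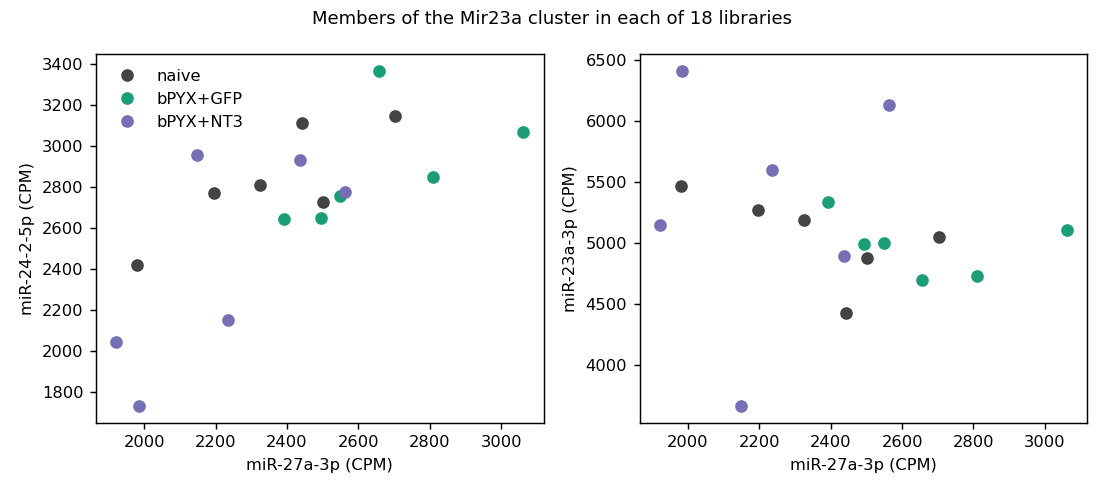
Levels (CPM) of miR-24-2-5p (left) and miR-23a-3p (right) against miR-27a-3p in the 18 libraries, coloured by group. After removal of group means, r with miR-27a-3p is 0.682 for miR-24-2-5p and -0.113 for miR-23a-3p.

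Between the clusters, the near-identical miR-23a-3p and miR-23b-3p had the highest correlation, with r = 0.849 and rho = 0.732 (permutation test, p = 0.00046 and 0.00193, adjusted p = 0.00966 and 0.0405). It rested in part on the bPYX+NT3 group, where r was 0.982; r was 0.619 without bPYX+NT3 replicates 3 and 4, and 0.524 and 0.557 within naive and bPYX+GFP rats. The part that reads too short to hold position 19 have in this was not tested. The near-identical miR-27a-3p and miR-27b-3p had r = 0.044 (permutation test, adjusted p = 0.949).

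The negative pairs were those of miR-27b-5p with the miR-23 guide strands. With miR-23a-3p r was -0.832 (permutation test, p = 0.00126, adjusted p = 0.0132) and rho was -0.604 (p = 0.012, adjusted p = 0.0839), but r was -0.449 without bPYX+NT3 replicates 3 and 4. Within naive, bPYX+GFP and bPYX+NT3 rats this r was -0.732, -0.095 and -0.959. With miR-23b-3p r was -0.763 (permutation test, p = 0.00853, adjusted p = 0.0448) and rho was -0.577 (p = 0.0232, adjusted p = 0.122), and r was -0.552 without bPYX+GFP replicate 3 and bPYX+NT3 replicate 4. Within the groups, in the same order, it was -0.600, -0.255 and -0.936.

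**Figure D5:**
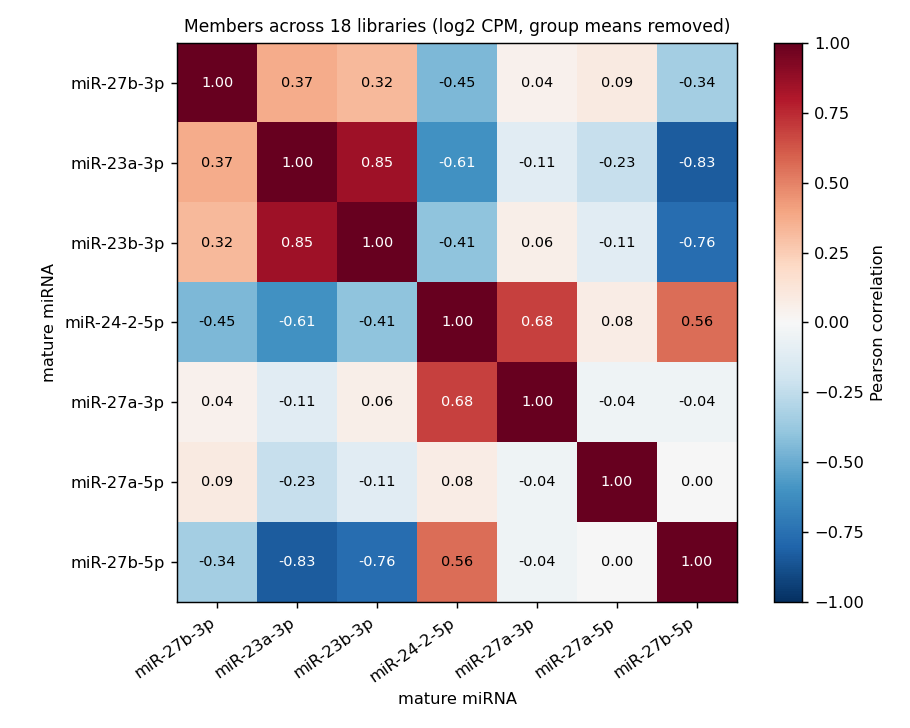
Pearson correlation of log2 CPM between the 7 tested members over 18 libraries after subtracting group means (colour and number in each square). The 2 miR-23 guide strands (0.85) and the pair of miR-24-2-5p and miR-27a-3p (0.68) are the high positive squares, and miR-27b-5p is negative with both miR-23 strands (-0.83 and -0.76).

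The miRNAs most like each guide strand are given here as a description over 18 libraries and the 366 tested miRNAs that are not members. miR-23b-5p, the other arm of the Mir23b hairpin, is among these 366. miR-23a-3p was most like miR-374-5p (r = 0.885), miR-16-5p (0.815) and miR-511-3p (0.753), and miR-23b-3p was most like miR-674-5p (0.742), miR-532-3p (0.730) and miR-34a-3p (0.725). For miR-27a-3p these were miR-204-3p (0.779), miR-376b-5p (0.748) and miR-22-5p (0.718). For miR-27b-3p they were miR-17-2-3p (0.828), miR-664-3p (0.639) and miR-323-3p (0.630). None of these 4 lists names the same miRNA as another, and the median r over the 366 was between -0.03 and 0.05. Each miRNA listed for miR-27a-3p had a higher r with it than miR-24-2-5p of its own cluster (0.682). miR-23a-3p had a higher r with miR-374-5p than with miR-23b-3p (0.849). Its r with miR-16-5p and miR-511-3p was below 0.849, as was that of miR-23b-3p with the miRNAs of its list.

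A ganglion also holds vessels, glia and blood cells, and 29 miRNAs known from such cells and from sensory neurons were looked up, of which 21 were tested. None had an adjusted p under 0.05 in any comparison by edgeR. At an unadjusted p under 0.05, 1 of the 21 was higher and 2 were lower after injury, where 21.2% of all tested miRNAs were called, and 1 was higher and 0 were lower in each of the other comparisons, where the shares were 8.58% with NT3 against GFP (5.09% as higher) and 13.7% with NT3 against naive (7.24% as higher). Of these, miR-145-5p, of smooth muscle and pericytes, went the other way from miR-27a-3p. Its log2 fold change was -0.50 ± 0.14 after injury (adjusted p = 0.0742) and 0.40 ± 0.16 with NT3 against GFP (adjusted p = 0.442). The other 3 of its list had no such call, and the summed level of the 4 overlapped between groups, at 42116 to 69595, 45041 to 60012 and 41557 to 59538 CPM in naive, bPYX+GFP and bPYX+NT3 rats, with medians of 46528, 50539 and 51378 CPM. The other tested miRNA of the sensory neuron list had no call, and the summed list overlapped between groups, at 23643 to 31011, 28968 to 33104 and 25920 to 32958 CPM, with medians of 27477, 30390 and 31113 CPM. miR-182, of that list, had 0.20 ± 0.08 after injury (adjusted p = 0.173) and 0.19 ± 0.09 with NT3 against naive (adjusted p = 0.349). The fibroblast miR-199a-5p had -0.21 ± 0.10 after injury (adjusted p = 0.232), the other 2 of its list had no call, and its summed levels of 1627 to 2460, 1387 to 1870 and 1544 to 1851 CPM overlapped, with medians of 1846, 1727 and 1723 CPM. The part of cell makeup in the values of miR-27a-3p was not tested.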

How the data were processed

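Small RNA libraries were made from ganglia of 18 rats, 1 library per rat. The deposited values are raw read counts per mature miRNA. The authors trimmed adapters, aligned the reads with Bowtie2 to Rnor_5.0 and counted with HTSeq; bcl2fastq 1.8.4 is named in the submitters' processing notes, and versions of the aligner and counter are not given in the sources used here. The 5 totals of reads given to no miRNA, together 65.1% of reads, entered neither library sizes nor tests. Groups were taken from the labels. Within each group no library was a copy of another (lowest chi-square per degree of freedom, 37.3).

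Each comparison was fitted on its 12 libraries with edgeR 4.0.16 in R 4.3.3 (TMM scaling, quasi-likelihood test, two-sided), on the 373 of 753 miRNAs with more than 10 counts in at least 6 of 18 libraries, with Benjamini-Hochberg adjustment over the 373. SE were derived from the F statistic. Ratios were log2 of counts plus 0.5 and were tested by exact permutation in Python 3.11.15 (924 splits, lowest possible p 0.00216), with adjustment over 18 tests. For the replicate block of the ratios and the sum, the signs of the differences between same-numbered libraries were flipped in every way instead. That test has fewer arrangements and a higher lowest possible p. The ratios that need miR-24-3p or miR-24-1-5p, and the miRNAs most like miR-24-3p, were not computed because those strands had 0 or 1 count. The members and lists were chosen with earlier results of these data known. All members were named, with the 3 miRNAs most like each of 4 guide strands and the cell type miRNAs with an unadjusted p under 0.05. Alternatives were median-of-ratios size factors, library size only, no filter, the likelihood ratio test, DESeq2 1.42.0, a fit of all 3 groups, a pseudocount of 1, a block for the replicate number, and omitting each library in turn. Intervals and limits from counts cover counting error only, since no molecular identifiers are stated. The fits were also run on simulated data, and the outcome is not given here.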

Additional observations from a re-analysis of the deposited data

Results flagged for a closer look

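The log2 ratio of miR-23a-3p to miR-23b-3p in bPYX+GFP replicate 3 was 0.87, and the nearest of the other 5 libraries of the group was at 0.63, a gap of 0.893 of the group's range. The ratio was 1.83 times in that library, and miR-23b-3p was at its lowest of the group there, at 2725 CPM. It was 1 of 42 groups of 6 libraries that were looked at for a library standing apart, and chance gives about 1 in 20, or 2.1.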

How the results depend on the processing

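The count of members with an adjusted p under 0.05 was 0 in all 3 comparisons under each alternative. The unadjusted counts (share of all tested miRNAs in brackets) moved. For bPYX+GFP versus naive the 1 call (miR-27a-3p; 21.2% of all) became 0 with the likelihood ratio test (16.4%), the fit of all 3 groups (18.5%) and the replicate block (20.4%), and was 0 to 1 with single libraries left out (0, beside 14.2 to 20.9%, without naive replicate 1, 2, 3 or 6 and without bPYX+GFP replicate 1, 2, 4 or 6). For bPYX+NT3 versus bPYX+GFP it went from 1 (8.58%) to 2 with no filter (9.61%) and the replicate block (10.5%) and 3 in the fit of all 3 groups (10.7%), and ran from 1 to 3 with single libraries left out (2 without bPYX+GFP replicate 5, 9.92%, or bPYX+NT3 replicate 1, 9.38%, or 2, 11.5%, and 3 without bPYX+NT3 replicate 4, 14.5%); miR-27a-3p had an adjusted p between 0.12 and 0.53 over the alternatives. For bPYX+NT3 versus naive it ran from 0 to 1, with 1 call without bPYX+NT3 replicate 2 (15.8%) or 4 (18.2%). Ratio tests with an adjusted p under 0.05 ran from 0 to 2: 1 without bPYX+GFP replicate 3 (miR-27a-3p to miR-27b-3p) and 2 without bPYX+NT3 replicate 1. With library size only, the summed members turned from -0.04 to 0.020 for NT3 against naive and moved to -0.030 for GFP against naive and 0.050 for NT3 against GFP. With single libraries left out they ran from -0.075 to -0.0031, -0.072 to -0.026 and -0.022 to 0.050 in these comparisons. The cause was not tested.

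Several values moved by over 1.5 times without changing sign with single libraries left out. In NT3 against naive these ran from 0.011 to 0.18 for miR-23a-3p, -0.27 to -0.14 for miR-24-2-5p, -0.14 to -0.047 for miR-27a-3p, 0.098 to 0.21 for miR-27a-5p and -0.14 to -0.036 for miR-27b-5p. In NT3 against GFP they ran from 0.0080 to 0.18 for miR-23a-3p and 0.0089 to 0.080 for miR-27b-3p, and in GFP against naive from -0.11 to -0.047 for miR-27b-3p. The log2 ratio of miR-23a-3p to miR-23b-3p ran from 0.0036 to 0.070 with NT3 against GFP and 0.032 to 0.086 with NT3 against naive, and that of miR-23a-5p to miR-23a-3p from -0.77 to -0.30 in the first. Library size only moved NT3 against naive to 0.15 for miR-23a-3p, -0.025 for miR-27a-3p, 0.19 for miR-27a-5p and -0.033 for miR-27b-5p, and NT3 against GFP to 0.083 for miR-27b-3p. Other values, near 0, changed sign. With library size only, the log2 fold change was 0.0051 for miR-23a-3p in GFP against naive, 0.013 for miR-27a-5p in NT3 against GFP and 0.024 for miR-27b-3p in NT3 against naive. With the replicate block it was -0.0038 for miR-23b-3p in NT3 against naive. With single libraries left out, those of GFP against naive ran from -0.060 to 0.0037 for miR-23a-3p, -0.092 to 0.00069 for miR-23b-3p and -0.019 to 0.062 for miR-24-2-5p. Those of NT3 against GFP ran from -0.0068 to 0.12 for miR-23b-3p and -0.059 to 0.038 for miR-27a-5p, and those of NT3 against naive from -0.028 to 0.097 for miR-23b-3p and -0.087 to 0.014 for miR-27b-3p. The log2 ratios ran from -0.014 to 0.058 (miR-23a-3p to miR-23b-3p) and -0.066 to 0.058 (miR-27a-5p to miR-27a-3p) in GFP against naive. In NT3 against naive they ran from -0.030 to 0.44 (miR-23a-5p to miR-23a-3p), -0.11 to 0.026 (miR-27a-3p to miR-27b-3p) and -0.15 to 0.0055 (miR-27b-5p to miR-27b-3p).

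Groups shared replicate numbers in the labels, but same-numbered libraries correlated between -0.384 and 0.371 and nothing says what they share. They were therefore not taken as pairs in the main tests, only in the replicate block. With 6 rats per group, the interval of miR-24-2-5p with NT3 against GFP ran from -0.51 to 0.03 on the log2 scale.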
